A study of Homo sapiens with 48 samples.

Results

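The knockout of MRGBP in A382, an established human glioblastoma cell line, was compared with cells carrying the control guide RNA sgNeg2. The comparison used 4 of the 48 libraries of the study: 1 library of each of 2 guide RNAs against MRGBP and 2 replicate libraries of sgNeg2, chosen by the sample labels. Cells of both groups were infected with lentivirus carrying the guide RNA and collected on day 9, and polyadenylated RNA was sequenced with a strand-specific kit. The study targeted the subunits of the EP400/TIP60 complex one by one, and the deposited values of MRGBP share a section of the table with sgNeg2 and with knockouts of EP400, TIP60, ACTL6A, ING3, TRRAP, DMAP1, GAS41, MEAF6 and VPS72. The labels do not say whether the libraries came from separate cultures, so the spread within the sgNeg2 pair may be technical. The other targets with 2 libraries were pairs of different guides. The spread behind the p-values therefore also holds differences between guides. The MRGBP cells are infected populations as far as the labels go, and no measure of editing in them was used here. In bulk RNA of such a population, fewer cells with a gene's mRNA and less of it per cell cannot be told apart.

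MRGBP is a small subunit of the TIP60/EP400 complex, which acetylates histones H4 and H2A and exchanges the histone variant H2A.Z into chromatin. It binds the related proteins MORF4L1 (MRG15) and MORF4L2 (MRGX), and it works beside the bromodomain subunit BRD8. The complex is known as a co-activator at many promoters, and TIP60 also acetylates p53. The gene of MRGBP lies near the end of the long arm of chromosome 20.

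Against sgNeg2, MRGBP knockout raised 20 and lowered 10 of 11382 tested genes (0.264%), led upward by the neurosecretory precursor VGF, the small secreted protein C4orf48 and the tubulin polyglutamylase subunit TPGS1. The number of calls ran from 2 to 239 when 1 library was left out, and 1459 genes had an unadjusted p under 0.05. Of the 10 genes that fell, 4 lie on chromosome 20.

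Values were FPKM, fragment counts scaled by transcript length and by the depth of the library. Fold changes are differences of log2(FPKM + 1), which understate changes of weakly expressed genes. Genes reaching 1 FPKM in 2 or more libraries of the section were tested, which left 11382 of 19102. A gene was called at a limma adjusted p under 0.05, with the spread taken from 20 libraries of the section. Depth, read from the steps between low values, was 8.43 fragments per kilobase at 1 FPKM with MRGBP guide 1 and 10.7 with guide 2, against 9.03 and 16.3 in the sgNeg2 pair, in a section that ranged from 8.14 to 19.4. Between 10549 and 10841 genes per library reached 1 FPKM. Markers of glioma were present in all 4 libraries (summed FPKM of 27 glioma and neural progenitor genes 8405 and 6535 with the MRGBP guides, 6723 and 6307 with sgNeg2). Of 9 microglia and macrophage markers 5 were at 0 in all 4 libraries, of 7 endothelial markers 2, of 7 oligodendrocyte markers 3 and of 7 epithelial markers 2. The epithelial sum, 85.5 and 78.1 FPKM with the MRGBP guides and 77.8 and 61.8 with sgNeg2, was nearly all KRT8 and KRT18. With the MRGBP guides the oligodendrocyte sum was 39.4 and 33.1 FPKM, the microglia sum 17.4 and 12.9 and the endothelial sum 0.69 and 1.24. With sgNeg2 these sums were 42.4 and 38.1, 18.6 and 14.7, and 0.816 and 0.824 FPKM. Neuron markers (8 of 10 tested) summed to 496 and 488 FPKM with the MRGBP guides and 464 and 422 with sgNeg2, and fibroblast markers (7 of 9 tested) to 582 and 625 with the MRGBP guides and 561 and 625 with sgNeg2. No marker of another cell type was called against sgNeg2, and the part of other cell types in the results was not tested.

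The promoters of 4 genes that rose are printed here, because VGF and C4orf48 had the largest rises and because VGF, JUND and UBE2S were, among the called genes with an entry in the promoter table, the only ones whose window held the cAMP response element TGACGTCA. The sequences are those of RefSeq (GRCh38.p14), from 250 bases before to 50 bases after the annotated start, 5′ to 3′ on the strand of the gene. Capitals mark the cAMP response element and the GC box GGGCGG, either strand, and everything else is in lower case. The strand is minus for VGF (chr7:101165520-101165819), plus for C4orf48, listed by RefSeq as NICOL1 (chr4:2041745-2042044), minus for JUND (chr19:18281573-18281872) and minus for UBE2S (chr19:55407739-55408038).
VGF: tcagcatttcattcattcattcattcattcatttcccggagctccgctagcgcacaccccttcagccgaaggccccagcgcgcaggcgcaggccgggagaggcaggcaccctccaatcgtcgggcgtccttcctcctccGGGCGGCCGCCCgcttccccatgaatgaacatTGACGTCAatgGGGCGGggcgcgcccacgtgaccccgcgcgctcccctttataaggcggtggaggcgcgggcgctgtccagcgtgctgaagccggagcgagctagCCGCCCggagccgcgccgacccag
C4orf48: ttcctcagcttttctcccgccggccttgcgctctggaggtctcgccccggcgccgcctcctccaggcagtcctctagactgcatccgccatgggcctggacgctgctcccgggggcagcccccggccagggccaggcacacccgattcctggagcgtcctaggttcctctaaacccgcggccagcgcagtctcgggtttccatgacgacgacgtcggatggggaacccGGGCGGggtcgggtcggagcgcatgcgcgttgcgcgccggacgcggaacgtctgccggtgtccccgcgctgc
JUND: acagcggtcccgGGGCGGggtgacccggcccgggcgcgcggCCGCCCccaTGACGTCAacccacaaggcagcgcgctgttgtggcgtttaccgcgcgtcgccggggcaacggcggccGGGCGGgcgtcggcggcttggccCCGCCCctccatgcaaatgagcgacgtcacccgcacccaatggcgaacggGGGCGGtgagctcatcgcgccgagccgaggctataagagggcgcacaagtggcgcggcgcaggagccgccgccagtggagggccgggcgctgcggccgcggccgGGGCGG
UBE2S: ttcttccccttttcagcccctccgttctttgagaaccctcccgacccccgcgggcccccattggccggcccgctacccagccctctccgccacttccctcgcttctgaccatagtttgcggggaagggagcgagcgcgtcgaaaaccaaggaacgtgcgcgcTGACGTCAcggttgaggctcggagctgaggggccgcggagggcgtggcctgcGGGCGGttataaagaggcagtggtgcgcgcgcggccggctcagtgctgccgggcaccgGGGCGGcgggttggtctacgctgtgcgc

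Promoter windows of chromosome 8 (408 tested genes) were left out, and the first window of each gene symbol was kept. The table of promoters then matched 17 of the 20 genes that rose, 8 of the 10 that fell and 9373 of the 11382 tested genes. The cAMP response element was in 3 of the 17 windows of genes that rose and in 0 of the 8 of genes that fell. It was in 3.52% of the tested genes' windows and in 1.98% of the 27305 windows kept. The GC box was in 13 of 17 and 6 of 8 windows, against 70.8% of the tested genes. The CCAAT box CCAAT was in 9 of 17 and 1 of 8 windows, against 37.2% of the tested genes. The TATA box TATAAA was in 2 of 17 and 0 of 8 windows (5.47% of tested genes) and the E-box CACGTG in 1 of 17 and 0 of 8 (10.3%). These 5 motifs were searched on both strands and were chosen with the called genes known. None of the motifs contains another, and a match is a string of letters, not a binding site. The median number of CpG pairs per window was 31 among genes that rose and 44.5 among genes that fell, against 27 in all tested genes.

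MRGBP mRNA was lower with both guides, and by different amounts. It stood at 29.7 FPKM with guide 1 and 12.3 with guide 2, against 43.1 and 39.4 FPKM with sgNeg2, which is 72% and 29.9% of the control mean. Both values lay below both controls, and guide 2 gave the lowest value of the 20 libraries. In the 16 libraries of the other knockouts MRGBP had a lowest value of 24.9, a median of 40.7 and a highest of 52.2 FPKM, and the lowest pair, 24.9 and 25.4, came from the TIP60 knockout. The knockout as a whole had a log2 fold change of -1.06 ± 0.24 (SE, n = 2 libraries each), which missed the threshold (limma, adjusted p = 0.0948). Guide 2 alone did pass it (-1.66 ± 0.12, limma, adjusted p = 1.26e-05), and guide 1 alone did not (-0.46 ± 0.12, limma, adjusted p = 0.0627). The direct difference of guide 2 from guide 1 was -1.20 ± 0.14 (limma, adjusted p = 0.00656). A guide can disrupt a protein without lowering its mRNA, so these levels rank the mRNA and not the protein.

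**Figure D1:**
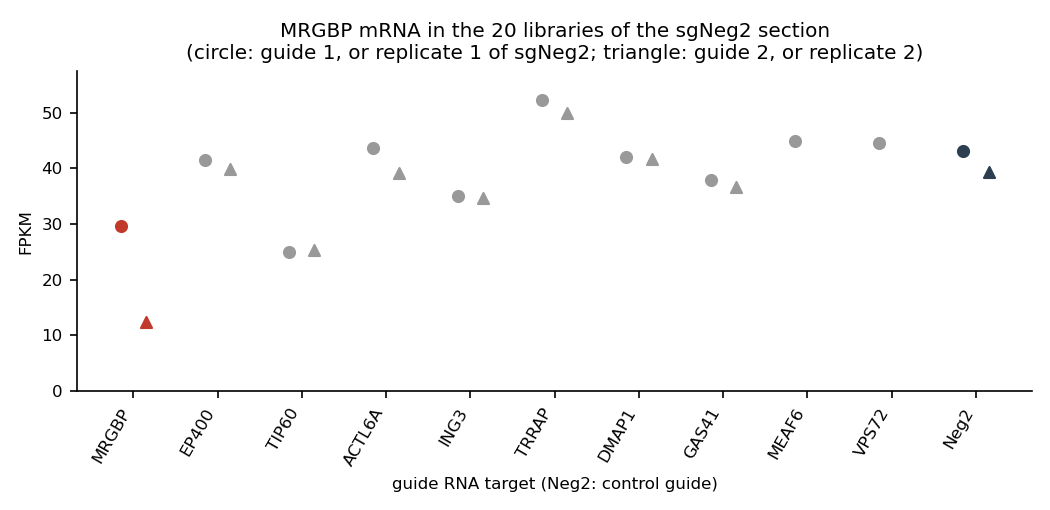
MRGBP mRNA in FPKM (vertical axis, from 0) for each guide RNA target of the sgNeg2 section (horizontal axis), with circles for guide or replicate 1 and triangles for guide or replicate 2. The MRGBP guides sit at 29.7 and 12.3 FPKM, below the sgNeg2 libraries at 43.1 and 39.4, and the TIP60 libraries at 24.9 and 25.4 lie between the MRGBP guides.

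Of the 11382 tested genes 30 were called, 0.264% of them, 20 higher (0.176%) and 10 lower (0.0879%). The median change over all tested genes was -0.01, and 1459 genes had an unadjusted p under 0.05. In 1799 genes (15.8%) both MRGBP libraries lay above both sgNeg2 libraries and in 2336 (20.5%) below. All 30 called genes had separate groups. Single libraries weighed heavily, with 10 calls without MRGBP guide 1, 239 without guide 2, 2 without sgNeg2 replicate 1 and 5 without replicate 2. With the libraries rescaled by their median ratio, 25 genes were called, and the split of higher to lower moved to 22 and 3. SYT5 and HES7 passed the minimum level only because of the MRGBP libraries, with 0 and 1 of the other 18 libraries at 1 FPKM or more, so they could enter the test only by being high in MRGBP knockout. UCN reached 1 FPKM in 4 of those 18. The other 17 genes that rose reached it in 10 or more of the 18 and the 10 that fell in all 18. Changes of at least 1 log2 unit were seen in 13 of the 20 genes that rose and in 1 of the 10 that fell.

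VGF, a peptide precursor of neurons and endocrine cells first known from nerve growth factor induction, had 6.83 FPKM with guide 1 and 13.6 with guide 2, against 1.85 and 1.23 FPKM with sgNeg2. Both MRGBP values were far above both controls, and the log2 fold change was 2.08 ± 0.22 (limma, adjusted p = 0.000629). C4orf48 had 140 and 115 FPKM in MRGBP knockout, against 39.2 and 45.9 with sgNeg2 (1.56 ± 0.18, limma, adjusted p = 0.00107). It was the most abundant of the genes that rose, and its groups were well apart. UCN, which encodes urocortin, a peptide of the corticotropin-releasing hormone family, had 1.63 and 1.49 FPKM against 0 and 0.274 FPKM with sgNeg2 (1.18 ± 0.23, limma, adjusted p = 0.0426). UCN is listed at 0 in 1 control library, so its fold change depends on the constant of 1 added before the logarithm. METRN, meteorin, a secreted factor of glial differentiation and neurite growth, had 34.9 and 32.3 FPKM against 15.3 and 15.1 FPKM with sgNeg2 (1.09 ± 0.18). SYT5, a synaptotagmin of vesicle fusion and a gene tested only through its MRGBP values, had 1.73 and 1.66 FPKM against 0.638 and 0.598 FPKM with sgNeg2 (0.73 ± 0.13). C1QTNF5, a secreted C1q-related protein, rose by 0.73 ± 0.14, with 6.52 and 6.45 FPKM in MRGBP knockout and 3.76 and 3.28 with sgNeg2.

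Among the genes that rose, HES4, HES7, SOX11 and JUND encode transcription factors, a description made after the calls were known. The genes that fell were not classed in this way. HES4, a bHLH repressor of the HES family, had 14.0 FPKM with guide 1 and 13.1 with guide 2, against 5.05 and 3.69 FPKM with sgNeg2 (1.45 ± 0.28, limma, adjusted p = 0.0426). HES7, the family member of the segmentation clock, also tested only through its MRGBP values, had 1.80 and 4.03 FPKM against 0.630 and 0.264 FPKM with sgNeg2 (1.39 ± 0.23). Both HES genes had separate groups, and HES7 was the more uneven of the pair between guides. SOX11, a SoxC factor of immature neurons, had 5.31 and 6.27 FPKM against 3.04 and 2.99 FPKM with sgNeg2 (0.75 ± 0.14). JUND, the AP-1 subunit, had 48.5 and 37.4 FPKM in MRGBP knockout and 21.8 and 27.1 with sgNeg2 (0.78 ± 0.15, limma, adjusted p = 0.0426). Its relative JUNB had 10.1 and 8.65 FPKM against 5.58 and 5.23 FPKM with sgNeg2 and was not called (0.69 ± 0.25, limma, adjusted p = 0.253). Over the 23 tested immediate early genes JUND was the only call, and their median change was 0.01 beside -0.01 over all genes. Of the 14 tested glioma and neural progenitor genes SOX11 was the only call, with a median of -0.02.

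The other genes that rose are of mixed function. TPGS1, a subunit of the tubulin polyglutamylase complex, had 14.9 and 13.2 FPKM in MRGBP knockout and 3.99 and 4.98 with sgNeg2 (1.46 ± 0.16, limma, adjusted p = 0.000629). UBE2S, the ubiquitin-conjugating enzyme that extends chains for the anaphase-promoting complex, had 106 and 74.4 FPKM against 43.4 and 36.9 FPKM with sgNeg2 (1.13 ± 0.18). Both groups of UBE2S were well apart, and guide 1 was the higher of the guides. TP53I11, named for its induction by p53, had 3.07 and 5.33 FPKM against 1.31 and 1.40 FPKM with sgNeg2 (1.11 ± 0.19, limma, adjusted p = 0.0296). CYP2R1, a vitamin D 25-hydroxylase, rose by 0.80 ± 0.13 and MSRB2, a mitochondrial methionine sulphoxide reductase, by 0.71 ± 0.13. TMEM160 (1.21), C19orf60 (1.05), CCDC85B (1.01) and DYDC2 (0.73) also rose, by their log2 fold changes.

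Genes that fell were fewer and, apart from 1, changed by at most 1 log2 unit. SYNE3, nesprin-3 of the nuclear envelope, had 1.30 and 1.92 FPKM in MRGBP knockout and 3.8 and 4.57 with sgNeg2 (-0.999 ± 0.17, limma, adjusted p = 0.0227). PLXNA2, a semaphorin receptor, had 7.64 and 9.49 FPKM against 15.4 and 17.4 FPKM with sgNeg2 (-0.87 ± 0.17). PREX1, an exchange factor for the GTPase Rac, had 25.5 and 24.8 FPKM against 40.4 and 45.4 FPKM with sgNeg2 (-0.75 ± 0.12, limma, adjusted p = 0.0216). The guides gave nearly the same PREX1 value. POFUT1, the enzyme that puts O-fucose on Notch receptors, had 17.2 FPKM with each guide against 24.4 and 25.4 FPKM with sgNeg2 (-0.51 ± 0.10). ZNF512B (-0.76), RAI1 (-0.80), C18orf32 (-0.80), PITPNM2 (-0.64) and DENND4B (-0.60) also fell. PREX1, POFUT1 and ZNF512B are on chromosome 20, as is the next gene.

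TGIF2-C20orf24, a readthrough transcript that joins a pair of neighbouring genes of chromosome 20, had the largest fall. It was at 0.475 and 0.0837 FPKM in MRGBP knockout and 16.4 and 8.24 FPKM with sgNeg2 (-3.33 ± 0.44, limma, adjusted p = 0.00478). Its value is uncertain, because reads of the readthrough and of its parts overlap and the quantification divides them. Neither of its parts, looked up after the value of the readthrough was seen, was called. C20orf24 had 135 and 104 FPKM against 86.3 and 78.1 FPKM with sgNeg2 (0.52, limma, adjusted p = 0.215), and TGIF2 had 3.63 and 3.24 FPKM against 4.32 and 3.70 FPKM with sgNeg2 (-0.17, limma, adjusted p = 0.72). The 16 libraries of the other knockouts ranged from 1.42 to 11.2 FPKM for the readthrough, with a median of 5.54.

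**Figure D2:**
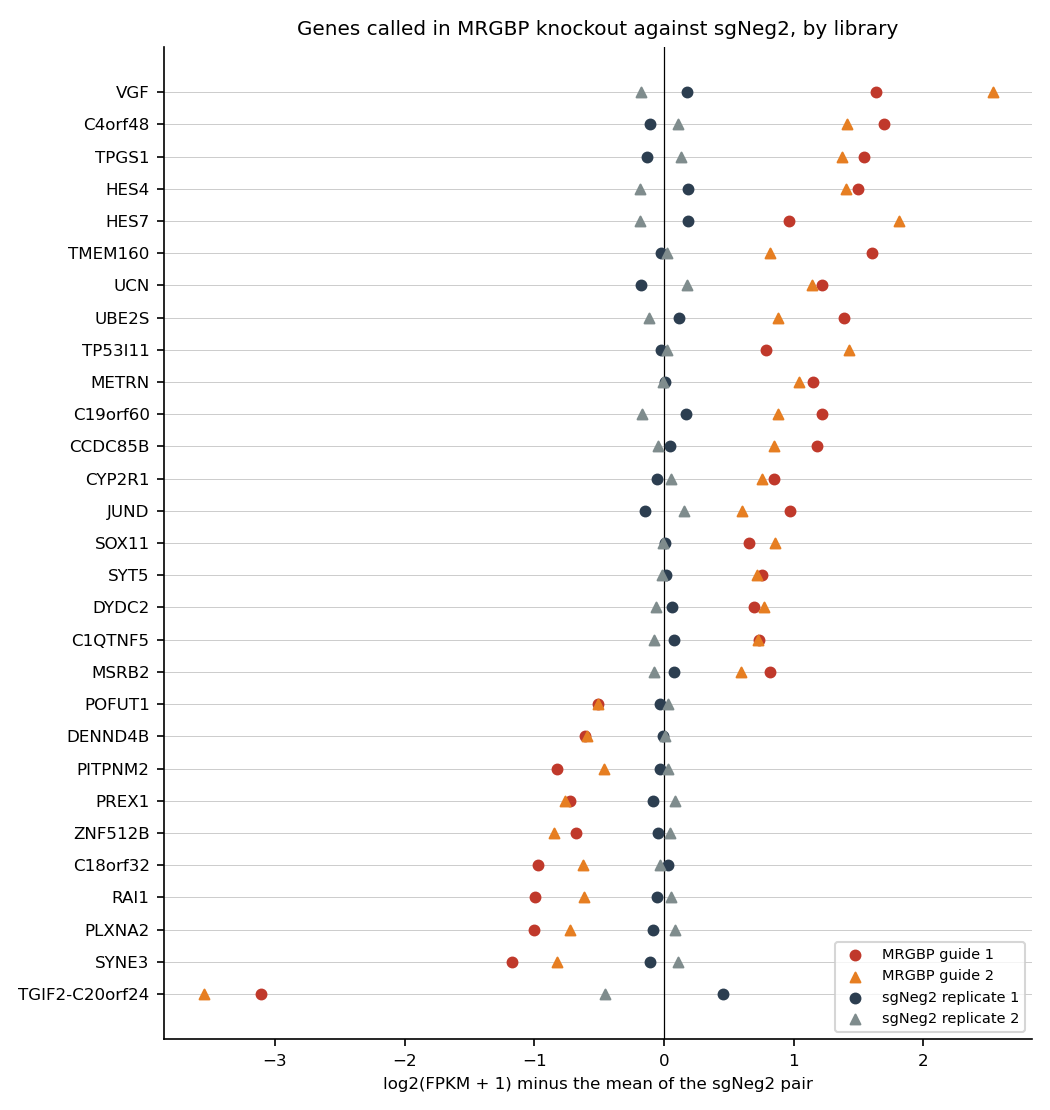
Of the 30 called genes, 29 (vertical axis, largest rise at the top) with the difference of log2(FPKM + 1) from the mean of the sgNeg2 pair (horizontal axis) in both MRGBP libraries and both sgNeg2 libraries. The MRGBP points lie on 1 side of both sgNeg2 points in each of the 29, from 2.08 on average for VGF to -3.33 for TGIF2-C20orf24.

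Each guide was also compared with sgNeg2 on its own, with 1 library and a borrowed spread. Guide 1 gave 239 calls (2.1% of tested genes), 120 higher and 119 lower (1.05% each). Guide 2 gave 10 (0.0879%), 6 higher (0.0527%) and 4 lower (0.0351%). Without sgNeg2 replicate 1 guide 1 had 456 calls, and without replicate 2 it had 6, and guide 2 had 3 without either. Although guide 2 had the lower MRGBP mRNA, guide 1 had more calls. Both guides called 6 genes, among them VGF, C4orf48, TPGS1 and HES7 higher and TGIF2-C20orf24 lower, and 233 were called with guide 1 and not with guide 2. HES7 could enter the test only through its MRGBP values. VGF differed from sgNeg2 by 1.63 with guide 1 and 2.53 with guide 2, and C4orf48 by 1.70 and 1.41. Of the 20 genes that rose, 17 were called with guide 1 alone and 6 with guide 2 alone, and of the 10 that fell, 9 and 1. The direct comparison of the guides, in which the shared controls cancel, called 1 gene, MRGBP itself (0.00879%), so no difference in the response of any other gene passed the test with 1 library per guide. There 2045 genes had an unadjusted p under 0.05.

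Transcript length moved with the values of guide 1. For guide 1 the tested genes were divided into 5 equal groups by length, and the median difference from sgNeg2 was 0.34 in the shortest group and -0.25 in the longest, with 0.17, 0.03 and -0.11 between. Guide 2 was flat by length, at -0.08 in the shortest group and -0.05 in the longest. The sgNeg2 replicates themselves differed in the same way, replicate 1 minus replicate 2 being 0.22 in the shortest group and -0.18 in the longest. Of the guide 1 calls, 84 of the 120 higher were in the shortest group and 98 of the 119 lower in the longest.

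The genes called with both guides together shared this property and a high GC content. The 20 that rose had a median transcript length of 1833 nucleotides and 66.4% GC, and the 10 that fell 6278 nucleotides and 56.3% GC, against 3400 nucleotides and 48.6% GC over all tested genes. In 5 equal groups by GC, the guide 2 median was 0.02 in the lowest group, -0.16 in the next to highest and -0.14 in the highest. Guide 1 had 0.01 in the lowest and 0.11 in the highest. The highest group held 13 of the genes that rose and 4 of those that fell. With the length and GC trends removed from each library, guide 1 called 32 genes, guide 2 called 8, and the knockout 13, of which 12 were among the 30. The part of library composition in the remaining calls was not tested.

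**Figure D3:**
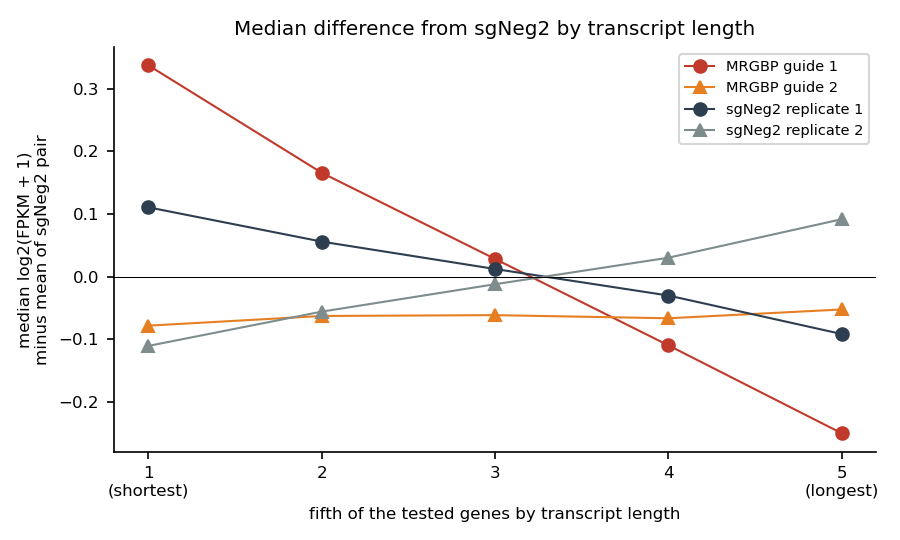
Median difference of log2(FPKM + 1) from the mean of the sgNeg2 pair (vertical axis) in 5 equal groups of the tested genes by transcript length (horizontal axis) for the 4 libraries. MRGBP guide 1 runs from 0.34 in the shortest to -0.25 in the longest group, guide 2 stays between -0.08 and -0.05, and the sgNeg2 replicates slope in opposite directions.

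The medians of 3 housekeeping lists are given by guide, without a test of the lists. For 41 genes of oxidative phosphorylation the median difference from sgNeg2 was 0.47 with guide 1 and -0.08 with guide 2, and for 56 cytosolic ribosomal proteins it was 0.42 and -0.20. For 40 mitochondrial ribosomal proteins it was 0.42 and -0.12. No gene of these 3 lists was called in the knockout, where 0.264% of all tested genes were. With unadjusted p under 0.05 there were 6, 0 and 3 higher and 0 lower in any of them. Over all tested genes 5.16% were higher and 7.66% lower at that level. With length and GC trends removed the guide 1 and guide 2 medians were 0.17 and -0.04 for oxidative phosphorylation, 0.12 and -0.13 for cytosolic ribosomal proteins and 0.15 and -0.09 for mitochondrial ribosomal proteins. The medians of the guides thus lay closer together in all 3 lists, and the knockout medians were then 0.08, 0.00 and 0.02.

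Of 19 tested genes of complex subunits 0 were called against sgNeg2 by limma, where 0.264% of all tested genes were, so the count says nothing particular about them. Of these 19, 2 had an unadjusted p under 0.05 (MRGBP and TRRAP), and the median change was 0.03. KAT5, the gene of the acetyltransferase TIP60, had 14.5 and 14.1 FPKM against 15.2 and 13.5 FPKM with sgNeg2. BRD8 had 32.4 and 27.8 FPKM in MRGBP knockout and 34.3 and 30.7 with sgNeg2 (-0.11 ± 0.15). MORF4L1 had 77.9 and 56.6 FPKM against 54.7 and 50.1 FPKM with sgNeg2 (0.34 ± 0.19, limma, adjusted p = 0.467), and MORF4L2 had 203 and 163 FPKM against 156 and 157 FPKM with sgNeg2 (0.21 ± 0.18, limma, adjusted p = 0.65). Their groups did not overlap, and the differences did not pass the test. Against the mean of the other 9 knockouts, which shares no control with them, MORF4L1 was higher by 0.50 (limma, adjusted p = 0.0329) and YEATS4, the gene of GAS41, by 0.44 (limma, adjusted p = 0.0329), the mean including the GAS41 knockout itself. Of 11 tested partners of MORF4L proteins outside the complex 0 were called, 6 lay below both controls and 1 above. Over all tested genes 20.5% lay below and 15.8% above. At an unadjusted p under 0.05 there were 3 of the 11, 1 higher and 2 lower (5.16% and 7.66% of all tested genes). Their median change was -0.16, and -0.09 with length and GC trends removed. ASH1L, a histone methyltransferase, was at -0.57 and HDAC2 at 0.29 log2 fold change. H2AFZ, which encodes H2A.Z, had 597 and 400 FPKM against 414 and 305 FPKM with sgNeg2 (0.46 ± 0.24, limma, adjusted p = 0.433).

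The p53 network is named in the study's title, and its genes are given here by their values. CDKN1A, the cell cycle inhibitor p21, had 215 and 200 FPKM with the MRGBP guides, against 223 and 207 with sgNeg2 (-0.05 ± 0.23, limma, adjusted p = 0.954). MDM2, the ubiquitin ligase of p53, had 28.8 and 34.0 FPKM against 25.4 and 25.6 FPKM with sgNeg2 (0.28 ± 0.18, limma, adjusted p = 0.521). CDKN1A groups overlapped, and MDM2 groups did not. GDF15, a secreted stress cytokine, had 32.5 and 33.9 FPKM against 15.6 and 18.4 FPKM with sgNeg2 and missed the threshold (0.93 ± 0.27, limma, adjusted p = 0.174). Of 25 tested p53 arrest and feedback targets 0 were called by limma, 2 were higher at an unadjusted p under 0.05 (5.16% of all tested genes were), and the median change was 0.08. In 8 of the 25 both MRGBP values lay above both controls and in 2 below, where 15.8% and 20.5% of all tested genes did so. Of 12 tested p53 cell death targets 0 were called and 0 had an unadjusted p under 0.05, with a median of 0.10. At an overall share of 0.264%, 0 calls in lists of this size say nothing particular about them. TP53I11 is outside both lists.

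Proliferation lists held no call, at an overall share of 0.264%. None of 35 G2/M and mitosis genes was called (median 0.16), 1 was lower at an unadjusted p under 0.05, CDC25B, with 66.1 and 47.2 FPKM against 87.1 and 65.5 FPKM with sgNeg2. CDC25B is a gene of chromosome 20. None of 30 G1/S and replication genes was called (median 0.12), with 3 higher at an unadjusted p under 0.05. These medians were 0.09 and 0.11 with length and GC trends removed.

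Of the 41 gene lists examined 38 held no call against sgNeg2, and JUND, VGF and SOX11 were the calls of the other 3. Of 23 tested genes of cholesterol and fatty acid synthesis 0 were called and 6 were lower at an unadjusted p under 0.05, where 7.66% of all tested genes were. In 12 of them both MRGBP values lay below both controls and in 0 above, where 20.5% and 15.8% of all tested genes did so. The list median was -0.14. Other lists leaned as well, such as secretory granule and neuropeptide genes, of which 5 of 8 tested lay above both controls and 0 below. LSS, lanosterol synthase, had 37.5 and 34.1 FPKM against 50.8 and 49.3 FPKM with sgNeg2 (-0.47 ± 0.12, limma, adjusted p = 0.143). SREBF2, the transcription factor of the pathway, had 25.6 and 24.3 FPKM against 31.6 and 35.2 FPKM with sgNeg2 (-0.41 ± 0.14, limma, adjusted p = 0.216). Both genes had separate groups and missed the threshold. Collagens and matrix genes (21 tested) had the lowest median of the 36 lists with 5 or more tested genes, -0.31, with 0 called and 8 below both controls. With length and GC trends removed it was -0.17, and cholesterol and fatty acid synthesis then lay lower, at -0.18. With guide 2 alone the collagen and matrix median was -0.17, against -0.28 for cholesterol and fatty acid synthesis. EGFR, the growth factor receptor often amplified in glioblastoma, had 3.19 and 9.32 FPKM against 9.22 and 17.8 FPKM with sgNeg2 (-1.08 ± 0.35, limma, adjusted p = 0.209), and guide 2 lay between the controls.

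The other knockouts of the section give a comparison that does not use sgNeg2 but uses the same MRGBP libraries. Against the equally weighted mean of the other 9, MRGBP knockout had 1305 calls (11.5%), 684 higher (6.01%) and 621 lower (5.46%), with 115 calls without guide 1 and 2033 without guide 2. All 20 genes that rose against sgNeg2 were called higher here, and 8 of the 10 that fell were called lower, C18orf32 and PITPNM2 being the exceptions. Since the 30 genes were chosen for the values of these MRGBP libraries, the counts describe them and are no independent support. In 16 of the 20 both MRGBP libraries lay above all 16 libraries of the other knockouts, as 383 of all tested genes did (3.36%). SYT5 and HES7, tested only through their MRGBP values, are among them. Of the 10 that fell, only 3 lay below all 16 libraries of the other knockouts, as 325 of all tested genes did (2.86%). VGF reached at most 2.65 FPKM there, C4orf48 at most 69.7 and TPGS1 at most 7.93. The MRGBP values of these 3 genes were each above every other library of the section. HES4, with a highest value of 5.48 FPKM in the other knockouts, was higher by 1.76 ± 0.21 (limma, adjusted p = 0.000412).

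Some genes differed from the other knockouts and were not called against sgNeg2. NUPR1, a small stress-induced chromatin protein of the ATF4 response, had 33.3 and 29.9 FPKM in MRGBP knockout, and in the other knockouts a lowest value of 1.02, a median of 9.12 and a highest of 17.4 FPKM. Its difference was 2.01 ± 0.19 (limma, adjusted p = 3.85e-05). With sgNeg2 it had 14.8 and 12.1 FPKM (1.18 ± 0.25, limma, adjusted p = 0.065). STMN2, a microtubule regulator of neurons, had 16.5 and 19.6 FPKM, above the highest value of the other knockouts at 7.83 FPKM (2.01 ± 0.24, limma, adjusted p = 0.000485) and above 8.86 and 10.4 FPKM with sgNeg2 (limma, adjusted p = 0.294). GNG8, a G-protein subunit, had 3.53 and 2.76 FPKM, with 0 and 1.78 in sgNeg2, and was higher than the other knockouts by 1.62 ± 0.39. Those knockouts had a median of 0 and a highest value of 3.57 FPKM, above both MRGBP values. In the opposite direction stood genes that were high in other knockouts and near control with MRGBP. KRTAP2-3, of the keratin-associated family, had 1.72 and 1.21 FPKM, with 0.321 and 1.64 in sgNeg2 and a range of 2.26 to 74.6 FPKM in the other knockouts (-1.94 ± 0.36, limma, adjusted p = 0.00567). KRTAP1-5 had 0 and 0.982 FPKM, with a range of 1.04 to 15.5 in the other knockouts (-2.02 ± 0.42). Both KRTAP genes lay below all 16 libraries of the other knockouts and were not called against sgNeg2. Members of this family have similar sequences and can share reads, so their values are uncertain.

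By list, counts stand beside 6.01% of all tested genes called higher and 5.46% called lower than the other knockouts, and no list was tested. The interferon-stimulated genes (15 tested) had 5 higher and 0 lower calls against the other knockouts, with a median of 0.26 beside 0.01 over all genes, and 0 calls against sgNeg2, where 1 was higher and 1 lower at an unadjusted p under 0.05. IFITM1, an antiviral membrane protein, had 4.13 and 4.25 FPKM in MRGBP knockout and 2.43 and 2.63 with sgNeg2, and was higher than the other knockouts by 1.15 (limma, adjusted p = 0.00841). YAP/TEAD targets (15 tested) had 0 higher and 4 lower calls against the other knockouts, with a median of -0.23. Inflammatory cytokines and chemokines (13 tested) had 0 and 3, with IL1B at -0.63 (limma, adjusted p = 0.0302) although it had 19.4 and 26.7 FPKM in MRGBP knockout and 12.7 and 12.3 with sgNeg2. TGF-beta and activin targets (14 tested) had 0 and 3, and INHBA, the activin A subunit, differed by -0.99 (limma, adjusted p = 0.00651). Secretory granule and neuropeptide genes (8 tested of 21) had 3 higher calls, VGF, CRH (0.46) and CPE, the last named after its values were seen. The other 13 secretory genes did not reach the minimum level.

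**Figure D4:**
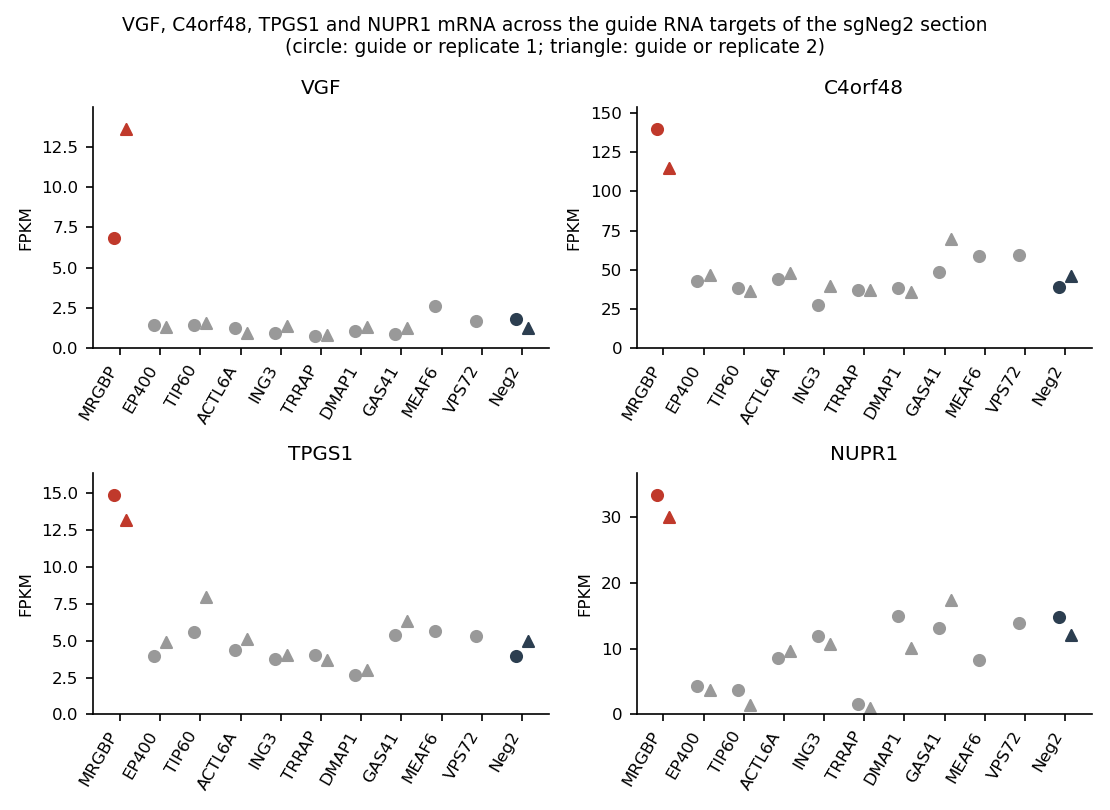
FPKM (vertical axes, from 0) of VGF, C4orf48, TPGS1 and NUPR1 in the 20 libraries by guide RNA target (horizontal axes), with circles for guide or replicate 1 and triangles for guide or replicate 2. The MRGBP libraries are the highest of the section for all 4 genes, for VGF at 6.83 and 13.6 FPKM where no other library exceeds 2.65.

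Single subunits differed from MRGBP to very different extents. MRGBP and TIP60 knockout differed in 4650 genes (40.9%), 2872 higher (25.2%) and 1778 lower (15.6%) in MRGBP knockout. MRGBP and EP400 knockout differed in 749 (6.58%), 413 higher (3.63%) and 336 lower (2.95%). MRGBP and ING3 knockout differed in 203 (1.78%), 108 higher (0.949%) and 95 lower (0.835%). Without MRGBP guide 1 these counts were 56 for EP400 and 24 for ING3, and without guide 2 they were 1874 and 641. Rescaling the libraries moved the splits to 2350 and 2308 for TIP60 and to 171 and 92 for ING3, the median of all genes shifting by 0.11 for TIP60. STRA6, the retinol transporter, had 1.45 and 2.10 FPKM with MRGBP guides and 1.34 and 1.89 with sgNeg2, against at most 127 FPKM in the other knockouts (-5.26 ± 0.30 from TIP60, limma, adjusted p = 9.05e-08). COL23A1, a membrane collagen, had 43.8 and 40.3 FPKM and 39.1 and 40.5 with sgNeg2, and was higher than in TIP60 knockout by 3.52 ± 0.36. S100A4, a calcium-binding protein of motile cells, had 397 and 208 FPKM and 254 and 259 with sgNeg2, and was higher than in TIP60 knockout by 3.31 and than in EP400 knockout by 1.87 ± 0.39. VGF was among the largest differences from EP400 (2.16 ± 0.22) and from ING3 (2.31 ± 0.22), with RNASE4, a secreted ribonuclease, at 1.93 and 1.69, and C4orf48 was higher than in ING3 knockout by 1.90 ± 0.18. ESM1, an endothelial proteoglycan gene, was lower than in ING3 knockout by 1.70 on the log2 scale (-1.70 ± 0.38), with 0.957 and 1.06 FPKM in MRGBP knockout.

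BRD8 and the MORF4L proteins were targeted in other sections of the table, each with its own control, so those comparisons share no library with MRGBP. Levels are not comparable between sections. In BRD8 knockout 3885 of 8458 tested genes were called (45.9%), 24.2% higher and 21.7% lower. The BRD8 libraries, replicates of 2 guides, were fitted as a single group. Replicates of a guide thus counted as replicates of the knockout, so the spread in BRD8 knockout may be understated. Of the 20 genes that rose with MRGBP, 12 were tested there, 7 were higher and 2 lower (TMEM160 and UBE2S). The 7 were VGF (0.68 ± 0.08), DYDC2 (1.05), CCDC85B (0.86), TP53I11 (0.58), METRN (0.37), C19orf60 (0.35) and MSRB2 (0.27). Of the 10 genes that fell, 8 were tested, 6 were lower and 0 higher, among them PITPNM2 (-0.63), PLXNA2 (-0.61) and PREX1 (-0.41). NUPR1, which set MRGBP apart from the other knockouts of its own section, was also higher in BRD8 knockout (1.65 ± 0.12, limma, adjusted p = 1.05e-05). STMN2 was not called there (0.20 ± 0.08, limma, adjusted p = 0.0738). BRD8 mRNA itself differed by -1.09 ± 0.08 in those libraries. The libraries labelled as MORF4L1 and MORF4L2 knockouts each called 0 of 11063 genes with limma (0%), with 85 and 230 genes at an unadjusted p under 0.05. Their own target mRNA was near control, MORF4L1 at 51.3 and 63.3 FPKM against 55.2 and 55.6 FPKM in its controls (0.04 ± 0.29) and MORF4L2 at 155 and 151 FPKM against 168 and 162 FPKM in its controls (-0.11 ± 0.15). Whether the protein was lost in them is not known from these values.

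Chromosome 20, which carries MRGBP, stood apart from the other chromosomes as a whole. This was noticed in the data and is described without a test over genes. Of 11335 tested genes with a chromosome, 320 are on chromosome 20 (2.81% of all tested genes), and 4 of the 10 genes that fell but 0 of the 20 that rose are among them. Against sgNeg2 the median of chromosome 20 was -0.12, and the medians of the other 22 chromosomes ran from -0.05 to 0.04. In 35.3% of its genes both MRGBP libraries lay below both controls, against 12.3% to 27% on the other chromosomes and 20.5% overall. The guides differed in size. The chromosome 20 median was -0.04 with guide 1, next to the lowest of 23, and -0.22 with guide 2, the lowest. Over all tested genes the medians were 0.04 with guide 1 and -0.06 with guide 2. With length and GC trends removed the chromosome 20 median was -0.06 and -0.21 and the lowest of 23 with either guide. The medians over all tested genes were then 0.02 and -0.07.

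The same held against the mean of the other 9 knockouts. The median of chromosome 20 was -0.13, and the other chromosomes ran from -0.02 to 0.07. There 58 of its genes were called lower (18.1%) and 8 higher, where other chromosomes had 2.56% to 13.4% called lower and 5.46% were called lower overall. With guide 2 alone 18 were lower and 0 higher (5.62%, at most 0.826% elsewhere), and with guide 1 alone 39 and 18 (12.2%, at most 13.4% elsewhere). The 32 tested genes that follow MRGBP towards the end of the chromosome had a median of -0.19, with 26 below 0, and the 287 before it a median of -0.12, with 202 below 0. With guide 2 against sgNeg2 these medians were -0.41 and -0.21, beside -0.06 over all tested genes. With guide 1 they were -0.07 and -0.04, beside 0.04. In 4 groups of successive genes before MRGBP the medians against the other knockouts were -0.13, -0.08, -0.12 and -0.15, so the low values ran along the whole chromosome.

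The tested neighbours of MRGBP were mixed. On the near side NTSR1, a neurotensin receptor, differed from the other knockouts by -0.48 (limma, adjusted p = 0.0764), SLCO4A1, an organic anion transporter, by -0.31, and CABLES2, RPS21 and LAMA5 by -0.16, 0.00 and 0.12. None of these 5 was called. On the far side OGFR, TCFL5 and DPH3P1 were not called, while DIDO1, a chromatin-binding regulator of stem cell genes, differed by -0.56 (limma, adjusted p = 0.00735) and GID8, of the CTLH ubiquitin ligase, by -0.34 (limma, adjusted p = 0.0202). Against sgNeg2 their log2 fold changes were -0.60 and -0.49 and missed the threshold (limma, adjusted p = 0.12 and 0.101). Gene order was taken from RefSeq.

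**Figure D5:**
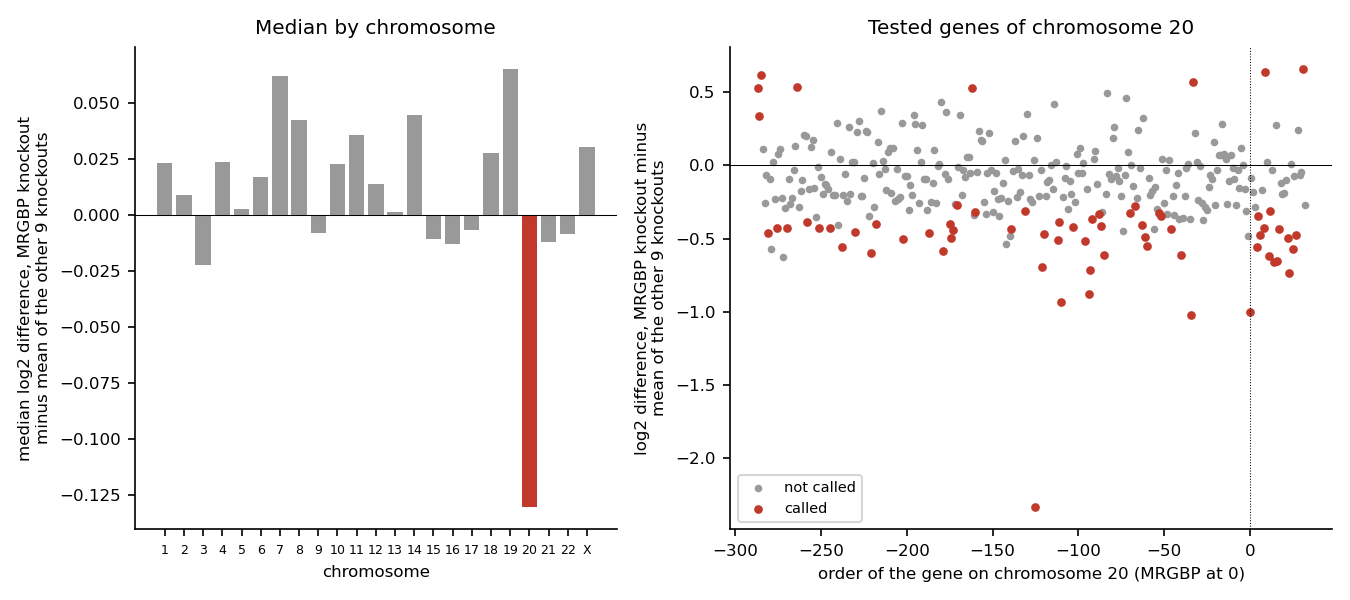
Left, the median log2 difference of MRGBP knockout from the mean of the other 9 knockouts (vertical axis) by chromosome. Right, the same difference for each tested gene of chromosome 20 in gene order with MRGBP at 0 (horizontal axis), called genes in red. Chromosome 20 has the lowest median, -0.13, and 58 of its genes were called lower and 8 higher.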

How the data were processed

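The authors deposited 1 table of FPKM values for 19102 genes and 48 libraries. Per the submitters' processing notes, the tools were TopHat2, Cufflinks and Cuffdiff and the build was hg19, with no version given. Columns were matched to samples by title, and empty columns split the table into 5 sections. In the sgNeg2 section, 2 of 22 columns (guide 2 of MEAF6 and of VPS72) were the same in all 19102 genes and were left out. MEAF6 and VPS72 thus had 1 library each.

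FPKM values were analysed as log2(FPKM + 1) with limma 3.58.1 in R 4.3.3 (1 level per target, empirical Bayes with trend, two-sided, Benjamini-Hochberg adjustment over the 11382 genes past the filter). Single guides were fitted as levels of their own. Transcript length and GC came from the longest annotated transcript (11342 genes), their trends being removed per library by lowess (span 0.3). Genes were placed on chromosomes by symbol in RefSeq. The genes named were MRGBP, all called genes, the complex's subunits, CDKN1A, MDM2, up to 4 list members with the smallest unadjusted p, the 5 largest called differences each way of each direct contrast and 5 tested neighbours of MRGBP per side, less a few genes that are not reported here. The length and GC correction, BRD8 and MORF4L sections, chromosomes and motifs were added after seeing the data. Members and lists were chosen with earlier results of these data known. The fit was tested on simulated data. Read counts were not analysed here, so no intervals from depth are given, and replicate numbers were not taken as pairs.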

Additional observations from a re-analysis of the deposited data

Results flagged for a closer look

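MRGBP mRNA differed between the guides, guide 2 minus guide 1 being -1.20 on the log2(FPKM + 1) scale (12.3 against 29.7 FPKM, 1 library each). The difference passed the direct test of the guides (limma, adjusted p = 0.00656). No other gene passed it with a constant of 1 and the values as deposited.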

How the results depend on the processing

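The 30 calls against sgNeg2 depended on the settings. They became 12 and 13 with constants of 0.1 and 0.5 added before the logarithm, 14 with no filter on low values, 17 with a minimum of 5 FPKM in place of 1, 2 with the 4 libraries only, 79 with the spread taken over all guide RNA libraries and 16 with no trend in the empirical Bayes step. They became 14 with the length trend removed and 13 with length and GC trends removed, both added after seeing the data. Leaving out 1 library gave 2 to 239 calls (10 without MRGBP guide 1, 239 without guide 2, 2 without sgNeg2 replicate 1 and 5 without replicate 2). No gene was called in all 15 alternatives. VGF was called in 14, C4orf48 and TPGS1 in 13, and TGIF2-C20orf24 in 12. None of the 30 genes changed direction in any of them.

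Guide 1 calls (239) became 25 and 32 with the length trend, and length and GC trends, removed, and 6 to 456 without 1 sgNeg2 library (456 without replicate 1, 6 without replicate 2). Guide 2 calls (10) became 3 without either sgNeg2 library, and their split of 6 higher and 4 lower became 7 and 2 after rescaling. The difference of the guides (1) became 7 with a constant of 0.1 and 2 after rescaling or with either trend removed. Without MRGBP guide 1 and without guide 2, calls against the other 9 knockouts were 115 and 2033 (1305 with both), against EP400 56 and 1874 (749), and against ING3 24 and 641 (203). The replicate block gave 37 calls, the 30 and 7 more. Same-numbered MRGBP and sgNeg2 libraries deviated together (r = 0.579 across genes, which are not independent replicates), but the labels give no shared origin for a number, so the block is reported only here. The cause of these shifts was not tested. Depth, 8.43 to 16.3 fragments per kilobase at 1 FPKM in the 4 libraries, limits genes near 1 FPKM.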

Other observations

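The low median on the target's own chromosome was also looked at in the other knockouts of the section, each against the mean of the remaining 9 and with the targeted gene left out. In 9 of 10 knockouts, MRGBP included, the chromosome of the targeted gene had the lowest median of 23 chromosomes. For MRGBP (chromosome 20) it was -0.13, for TIP60 (chromosome 11) -0.28, for TRRAP (chromosome 7) -0.19, for GAS41 (chromosome 12) -0.15 and for ING3 (chromosome 7) -0.08. For MEAF6, VPS72 and DMAP1 (chromosome 1) it was -0.06, -0.04 and -0.03, and for ACTL6A (chromosome 3) -0.04. EP400 (chromosome 12) was the exception, with a median of -0.03 that ranked 4 from the lowest. Some of the lowest ranks had small margins. For ACTL6A the next chromosome was at -0.033 against -0.039, and for VPS72 at -0.032 against -0.042. For MRGBP the next was at -0.02. For TIP60 it was at -0.13, and the median over all genes was itself -0.08. MEAF6 and VPS72 had 1 library each. These comparisons share libraries with each other, and the values are given without a test.

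The readthrough gene ATP5J2-PTCD1 had 2.39 and 2.75 FPKM in MRGBP knockout and 0 and 0.00225 with sgNeg2, was not called (limma, adjusted p = 0.0709), and is uncertain for the same reason as TGIF2-C20orf24.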
